A study of Homo sapiens with 8 samples.

Results

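NF-kB is a family of paired transcription factors held in check by inhibitor proteins, and the 10 genes described here encode its subunits and those inhibitors. They were taken by symbol, and the set was chosen with earlier results of these data known. The subunit genes are NFKB1, NFKB2, REL, RELA and RELB, the classical inhibitor genes are NFKBIA, NFKBIB and NFKBIE, and the genes of the nuclear, atypical inhibitors are NFKBIZ and BCL3. Each of the 10 was found once among the 20323 genes of the deposited table, and all 10 passed the low-count filter that left 12648 genes for testing. The messages were measured by RNA sequencing in H2452, an established human line from a pleural mesothelioma of the biphasic form, labelled as wild type. One group of 4 libraries came from cells given DPT (deoxypodophyllotoxin, a tubulin-binding lignan from plants) at 20 nM over 48 h. The other group of 4 came from cells given the solvent DMSO for the same time. All cells grew in medium with fetal bovine serum, penicillin and streptomycin. The submitters call the libraries biological replicates and give no culture day, so p-values measure the spread between these libraries.

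NF-kB subunits share a DNA-binding region, the Rel homology domain, and act as dimers. In the classical pathway an IκB inhibitor holds RELA, REL and the p50 product of NFKB1 in the cytoplasm until the IKK kinase marks it for breakdown, after which the dimer enters the nucleus. In the alternative pathway the kinase NIK, encoded by MAP3K14, leads to trimming of the p100 product of NFKB2 to p52, the partner of RELB. Several of the 10 genes are known targets of NF-kB, so the pathway rewrites its own parts and its own brakes. In mesothelioma NF-kB is known for its part in the response to asbestos and to tumour necrosis factor.

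Sequence windows around the start sites, from RefSeq on GRCh38.p14, are shown because κB sites in them are the known route of that self-regulation. The windows run 250 bases upstream of a start and 50 downstream, and 8 of the 10 genes had at least 1. RELB and NFKBIE had none in the table. The κB decamer consensus was searched for on both strands by that name, with matches to the same bases on either strand taken as 1. It occurred in 9 of the 14 windows and in 7 of the 8 genes, against 11.3% of all 35116 windows of that length and 13.3% of all gene symbols. RELA was the gene without a match in either of its windows. A match describes letters and is no evidence of binding in these cells. The windows below are read 5′ to 3′ on the strand of the gene, with the decamers in capitals. NFKB2 was chosen as a gene that rose, NFKBIA as the inhibitor whose level in DPT lay close to that in DMSO, and NFKB1 as the closest relative of NFKB2. The last 2 were chosen after their values were seen.

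NFKB2, chr10:102394328-102394627, plus strand: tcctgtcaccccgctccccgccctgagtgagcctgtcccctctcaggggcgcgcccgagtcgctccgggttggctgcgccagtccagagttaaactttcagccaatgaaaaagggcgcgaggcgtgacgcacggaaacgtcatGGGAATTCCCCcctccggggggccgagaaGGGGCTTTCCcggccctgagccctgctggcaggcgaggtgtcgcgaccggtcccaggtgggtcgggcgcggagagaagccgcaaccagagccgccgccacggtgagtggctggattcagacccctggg

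NFKB2, chr10:102395455-102395754, plus strand: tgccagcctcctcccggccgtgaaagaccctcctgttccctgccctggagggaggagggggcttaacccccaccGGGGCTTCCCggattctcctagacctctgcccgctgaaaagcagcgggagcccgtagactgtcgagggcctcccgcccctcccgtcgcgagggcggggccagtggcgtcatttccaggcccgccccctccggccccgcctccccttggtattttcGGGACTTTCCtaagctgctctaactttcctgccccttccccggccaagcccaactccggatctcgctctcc

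NFKBIA, chr14:35404700-35404999, minus strand: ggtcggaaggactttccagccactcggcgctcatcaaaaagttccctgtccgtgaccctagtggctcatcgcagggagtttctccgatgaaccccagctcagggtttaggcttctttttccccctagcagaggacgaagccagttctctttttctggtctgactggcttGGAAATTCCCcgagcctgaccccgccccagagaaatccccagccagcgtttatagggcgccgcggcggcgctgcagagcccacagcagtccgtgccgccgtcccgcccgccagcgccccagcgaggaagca

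NFKB1, chr4:102501109-102501408, plus strand: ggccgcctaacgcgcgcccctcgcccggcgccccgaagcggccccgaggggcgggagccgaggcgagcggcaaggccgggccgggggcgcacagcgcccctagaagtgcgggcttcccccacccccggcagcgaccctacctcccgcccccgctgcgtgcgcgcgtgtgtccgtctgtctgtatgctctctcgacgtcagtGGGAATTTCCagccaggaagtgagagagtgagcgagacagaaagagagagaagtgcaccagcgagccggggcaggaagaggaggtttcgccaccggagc

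In the upstream NFKB2 window of the pair shown, overlapping decamers began at positions -107 and -106 relative to the start and another at -78. In the downstream window decamers began at -176 and -21. The NFKBIA decamer, read on the opposite strand as gggaatttcc, began at -81. The NFKB1 decamer had the same letters on the strand of the gene, at -49. The same letters also stood in windows of REL, NFKBIB and NFKBIZ. NFKB2 has a further window upstream of those shown and NFKB1 a further window downstream, and each of these held 0 decamers.

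Library totals were 14964432 to 17205391 counts, so that 1 CPM (counts scaled to a common library size) was 14.8 to 17.1 counts. Each of the 10 genes had at least 173 counts in every library. A pair of libraries, DPT replicate 2 and DMSO replicate 3, stood apart from the other 6. The summed level of 12 interferon-stimulated genes was 1467 CPM in DPT replicate 2 and 2188.5 CPM in DMSO replicate 3, against 8215 to 9216 CPM in the other 6. Values are therefore given from all 8 libraries, from a fit with a term for the pair and from the 6 others. All 9 mesothelial markers averaged at least 1 CPM, with summed levels of 1864 to 2831 CPM in DPT and 2878 to 4019.5 CPM in DMSO. The keratins KRT8 and KRT18 made up most of these sums. Of the 9 markers 2 fell and 0 rose with 8 libraries, and 6 fell and 1 rose with the term. Mean levels of WT1 and CALB2 were higher in DPT, those of the other markers lower. Among all tested genes 5.68% were called higher and 5.29% lower with 8 libraries, and 16.9% and 17.0% with the term. Of 9 leukocyte markers 2 averaged at least 1 CPM, CD68 and CD14, with summed levels of 94.8 to 146 CPM in DPT and 91.9 to 131 CPM in DMSO, and MS4A1 had no counts. Of 5 endothelial markers 3 averaged at least 1 CPM, with sums of 3.60 to 9.45 CPM in DPT and 1.46 to 5.08 CPM in DMSO. Of these 3, 1 rose with 8 libraries and 2 with the term. Of the 12 interferon-stimulated genes 0 fell with 8 libraries and 9 with the term. The part of these markers in the results was not tested.

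Levels of different genes can be set side by side only per length, in FPKM (fragments corrected for the length of the gene and for depth). RELA, the main activating subunit, had the highest mean over the 8 libraries, 48.3 FPKM, with a range of 39.6 to 57.6. NFKBIA, its chief inhibitor, followed with 39.6 FPKM (24.9 to 45.4), then NFKB2 with 28.3 (21.6 to 37.5). NFKBIE averaged 19.0 FPKM, NFKB1 17.96, NFKBIB 13.5, NFKBIZ 12.2, RELB 8.43 and BCL3 6.98. REL, the subunit best known from lymphocytes, was lowest with 3.25 FPKM (2.56 to 4.18). Each neighbouring pair in that order had overlapping ranges, with the exception of BCL3 and REL. RELA lay above 86.0% of tested genes in mean FPKM and REL above 25.0%. Summed over the 5 subunits the level was 125, 103, 129.97 and 114 FPKM in DPT replicates 1 to 4, against 98.1, 99.98, 84.1 and 95.3 FPKM in DMSO replicates 1 to 4. Every DPT sum lay above every DMSO sum, but the lowest DPT sum was close to the highest DMSO sum. Sums of the 3 classical inhibitors overlapped, at 55.3 to 87.6 FPKM in DPT and 51.9 to 73.5 FPKM in DMSO. Those of all 10 genes overlapped too, at 171.5 to 236.8 FPKM in DPT and 148.0 to 194.0 FPKM in DMSO. FPKM ran higher in DPT in general, with a median log2 fold change over all genes of 0.049, against -0.002 in scaled counts. The part of that shift in the sums was not tested.

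The comparison of DPT with DMSO asks which of these messages differ in cells held with a tubulin binder. With all 8 libraries NFKBIE and NFKB2 rose, by 1.498-fold and 1.35-fold, and none of the 10 fell. A rise was called by edgeR's quasi-likelihood test at a Benjamini-Hochberg adjusted p under 0.05 over all tested genes. That is 2 of 10 genes higher, where 5.68% of all tested genes were called higher and 5.29% lower (718 and 669 genes). Scaling by library totals alone gave 969 and 523, and limma on FPKM gave 717 and 331. With no adjustment 5 of the 10 had p under 0.05, namely NFKB1, NFKB2, RELA, NFKBIE and BCL3, as did 26.5% of all tested genes. The median log2 fold change of the 10 was 0.22, against -0.002 over all tested genes. These are bulk messages, in which fewer cells of a kind and less RNA per cell cannot be told apart.

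The term for the pair left the fitted differences nearly as they were and narrowed their errors. The pair was picked from these same profiles, with no label behind it, so a narrowing follows in part from that choice. Counts and p-values with the term and in the 6 libraries depend on it and are less sure than they look. So are separations of the groups seen with a library of the pair set aside. No share over all genes was computed for those. With it 5 of the 10 rose (NFKB1, NFKB2, RELA, NFKBIE and NFKBIZ) and BCL3 fell, where 16.9% of all genes were called higher and 17.0% lower. In the 6 other libraries 6 rose (the same 5 and REL) and 0 fell, where 17.0% of all genes were called higher and 17.1% lower. DESeq2 on all 8 libraries called 3 of the 10 higher and 0 lower, where it called 8.03% of all genes higher and 7.81% lower. Limma on FPKM called 2 higher and 0 lower, where it called 6.0% higher and 2.77% lower. Without DPT replicate 2, 5 rose (NFKB1, NFKB2, REL, RELA and NFKBIE), where 9.26% of all genes were called higher and 8.67% lower. NFKBIE was the 1 gene called when the library left out was DMSO replicate 2, DMSO replicate 4 or one of DPT replicates 1, 3 and 4, where 2.93%, 2.68%, 3.6%, 2.61% and 2.6% of all genes, in that order, were called higher.

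**Figure D1:**
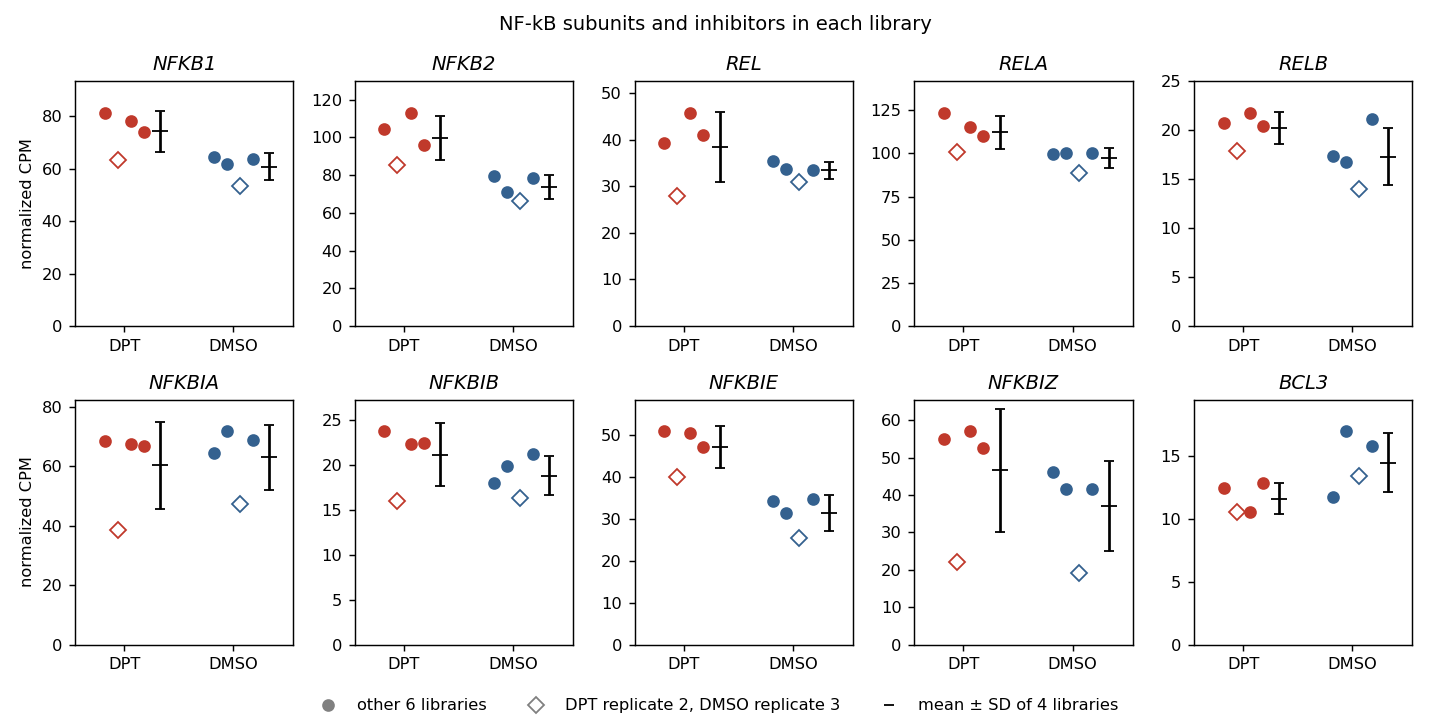
Normalized level in CPM (vertical axes from 0) of each gene in the 4 DPT libraries, left, and the 4 DMSO libraries, right, with the mean and SD beside them. Open diamonds mark DPT replicate 2 and DMSO replicate 3, which lie lowest in their groups for every gene but BCL3. NFKB2, NFKBIE and, by a narrow margin, RELA show no overlap between the groups.

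Among the subunits NFKB2 (ENSG00000077150, chr10:102394110-102402529) differed most. It measured 104.5, 85.2, 113 and 95.96 CPM in DPT replicates 1 to 4, against 79.7, 70.96, 66.4 and 78.6 CPM in DMSO replicates 1 to 4. All DPT libraries lay above all DMSO libraries, and the lowest of each group was the library of the pair. The means were 99.6 ± 11.9 CPM in DPT and 73.9 ± 6.34 CPM in DMSO (SD, n = 4 each), a log2 fold change of 0.43 (SE 0.0979, edgeR adjusted p = 0.0226). The value was 0.43 once the pair had a term (adjusted p = 3.16e-05) and 0.45 in the 6 libraries. The call was lost in 5 of the 8 fits that left out 1 library, where the library left out was DMSO replicate 2, DMSO replicate 4 or one of DPT replicates 1, 3 and 4 (adjusted p 0.0511 to 0.0722).

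NFKB1 (ENSG00000109320, chr4:102501329-102617302), the source of p105 and p50, measured 81.2, 63.1, 78.3 and 74.1 CPM in DPT, against 64.3, 61.9, 53.2 and 63.5 CPM in DMSO, in replicate order. DPT replicate 2 lay just below DMSO replicates 1 and 4, and the other DPT libraries lay above every DMSO library. The log2 fold change was 0.29 (SE 0.0940, edgeR adjusted p = 0.0807), and 0.29 with the term (adjusted p = 0.000361). It was also called by DESeq2 (adjusted p = 0.0489), without DPT replicate 2 (0.0135) and in the 6 libraries (0.000470).

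RELA (ENSG00000173039, chr11:65653596-65663094), which encodes p65, measured 123, 100.7, 115 and 109.9 CPM in DPT, against 99.8, 100.3, 88.5 and 100.4 CPM in DMSO. The groups did not overlap in CPM, but DPT replicate 2 exceeded the highest DMSO library by under 1 CPM. In FPKM they overlapped, with 47.6 in DPT replicate 2 and 48.8 in DMSO replicate 2. The log2 fold change was 0.21 (SE 0.0772, edgeR adjusted p = 0.120), and 0.21 with the term (adjusted p = 0.00262). Of the 10 genes, 3 had every DPT library above every DMSO library in CPM (NFKB2, RELA and NFKBIE), where 9.5% of all tested genes did. RELA shares exon sequence with an antisense gene that has no row in the table, and nothing in the sources used here tells whether counting used strand.

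REL (ENSG00000162924, chr2:60881521-60931610) measured 39.2, 27.9, 45.7 and 41.0 CPM in DPT, against 35.5, 33.7, 30.9 and 33.6 CPM in DMSO. DPT replicate 2 was the lowest of all 8 libraries, and the other DPT libraries were the 3 highest. The log2 fold change was 0.20 (edgeR adjusted p = 0.385), 0.19 with the term (0.0896) and 0.29 in the 6 libraries (0.00620), and within the pair DPT replicate 2 stood 0.15 log2 below DMSO replicate 3 (a difference of -0.15). REL was the one member with fractional expected counts, in all 8 libraries, and it shares exon sequence with a gene on the same strand that has no row in the table, so its level is uncertain. RELB (ENSG00000104856, chr19:45001430-45038198) measured 20.7, 17.9, 21.8 and 20.5 CPM in DPT, against 17.3, 16.7, 14.01 and 21.2 CPM in DMSO. Its groups overlapped through DMSO replicate 4. Its log2 fold change of 0.22 was not called with 8 libraries, with the term or in 6 libraries (edgeR adjusted p 0.300, 0.0617 and 0.164).

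Among the classical inhibitors NFKBIE (ENSG00000146232, chr6:44258166-44265788), which encodes IκBε, rose. It measured 50.7, 39.98, 50.3 and 47.0 CPM in DPT, against 34.1, 31.3, 25.4 and 34.7 CPM in DMSO. Even DPT replicate 2, the lowest of its group, lay above all DMSO libraries. The means were 47.0 ± 4.98 CPM in DPT and 31.4 ± 4.27 CPM in DMSO (SD, n = 4 each), a log2 fold change of 0.58 (SE 0.116, edgeR adjusted p = 0.0134). It was 0.59 with the term (adjusted p = 3.24e-06) and 0.56 in the 6 libraries, and within the pair DPT stood 0.65 log2 above DMSO. The call stood in each of the 8 fits that left out 1 library (adjusted p 0.00377 to 0.0477).

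NFKBIA (ENSG00000100906, chr14:35401511-35404749), which encodes IκBα, the fast feedback inhibitor, measured 68.5, 38.4, 67.6 and 66.7 CPM in DPT, against 64.6, 71.6, 47.1 and 68.6 CPM in DMSO. The groups overlapped, and the lowest library of each was that of the pair. The log2 fold change was -0.06 with a 95% interval of -0.49 to 0.37 (edgeR adjusted p = 0.877). With the term it was -0.08, interval -0.21 to 0.05, and in the 6 libraries -0.02, interval -0.14 to 0.11. No fit that was run called it. In FPKM, NFKBIE stood at 0.590, 0.780, 0.540 and 0.540 of NFKBIA in DPT replicates 1 to 4, against 0.394, 0.336, 0.358 and 0.385 in DMSO replicates 1 to 4. The share was higher in every DPT library than in any DMSO library. It was chosen after the values were seen and was not tested.

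NFKBIB (ENSG00000104825, chr19:38899700-38908893), which encodes IκBβ, measured 23.7, 15.9, 22.3 and 22.4 CPM in DPT, against 17.95, 19.8, 16.2 and 21.2 CPM in DMSO. DPT replicate 2 was the lowest of all 8 and the other DPT libraries the 3 highest. Its log2 fold change of 0.17 was not called (edgeR adjusted p = 0.483, interval -0.14 to 0.47). NFKBIB shares exon sequence with SIRT2 on the opposite strand, which averaged 12.2 CPM with a treatment difference of -0.25 log2 (adjusted p = 0.335).

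Among the nuclear inhibitors NFKBIZ (ENSG00000144802, chr3:101827991-101861022), which encodes IκBζ, a partner of p50 at secondary response genes, varied most. It measured 54.9, 22.1, 57.04 and 52.7 CPM in DPT, against 46.2, 41.5, 19.3 and 41.5 CPM in DMSO. The libraries of the pair lay far below the other 6. Outside the pair every DPT library lay above every DMSO library, but the share of all genes that did so was not computed. The log2 fold change was 0.33 (SE 0.324, edgeR adjusted p = 0.566) and became 0.32 (SE 0.0641, adjusted p = 0.00108) with the term and 0.35 (adjusted p = 0.000678) in the 6 libraries. BCL3 (ENSG00000069399, chr19:44747705-44760044), which binds p50 and p52 dimers, measured 12.4, 10.5, 10.5 and 12.9 CPM in DPT, against 11.7, 16.9, 13.4 and 15.8 CPM in DMSO. DMSO replicate 1 lay below 2 of the DPT libraries, so the groups overlapped. The log2 fold change was -0.32 (edgeR adjusted p = 0.172), and with the term -0.32 (adjusted p = 0.0456), the 1 fit of all those run that called it. In the 6 libraries the adjusted p was 0.0824.

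**Figure D2:**
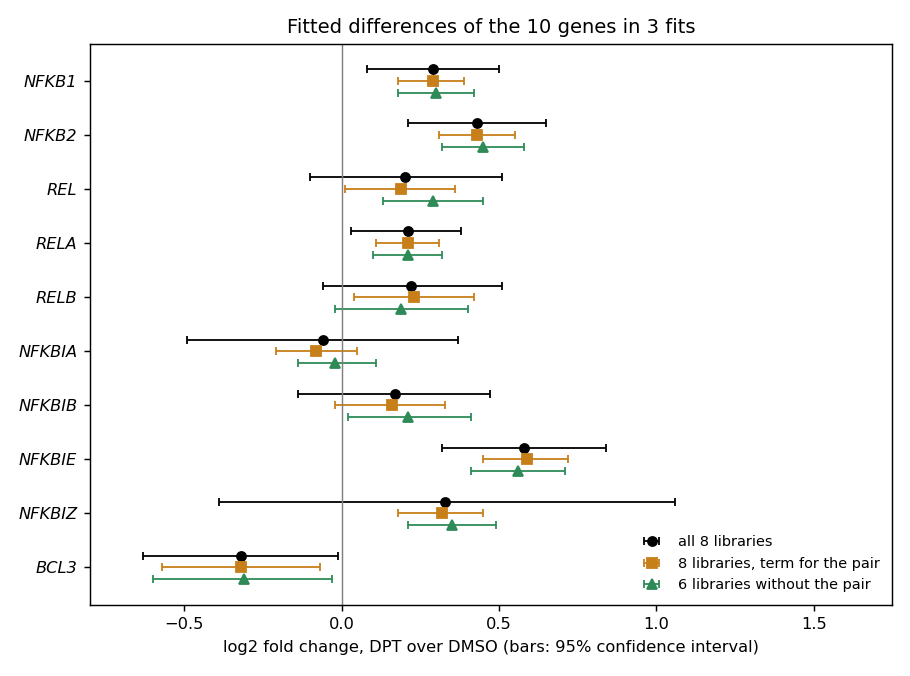
Fitted log2 fold change of DPT over DMSO (horizontal axis) with its 95% confidence interval for each gene, from all 8 libraries, from 8 libraries with a term for the pair, and from the 6 libraries without the pair. NFKBIE has the largest value, 0.58 with 8 libraries, NFKBIA stays near 0 in all 3 fits, and the interval of NFKBIZ narrows when the pair is modelled or left out.

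The pair differed from the other 6 libraries in the same genes, and by more than the treatment did for several. Since its libraries were picked by their profiles, these differences are a description with no test. All 10 genes were lower in the pair, where the median difference over all tested genes was -0.01 log2. NFKBIZ stood 1.24 log2 below the other 6 in the fit with the term (a difference of -1.24) and NFKBIA 0.67 below (-0.67). For NFKBIB it was -0.40, for REL -0.36, for NFKBIE -0.35, for RELB -0.31, for NFKB1 -0.28, for NFKB2 -0.25, for RELA -0.19 and for BCL3 -0.16. The interferon-stimulated genes had a median of -2.36 and the NF-kB target genes listed below one of -0.98. The part of the interferon-stimulated genes in the low values of the pair was not tested. Between its libraries, DPT replicate 2 stood above DMSO replicate 3 by 0.65 log2 for NFKBIE, 0.36 for NFKB2, 0.35 for RELB, 0.25 for NFKB1, 0.20 for NFKBIZ and 0.19 for RELA. The difference was -0.03 for NFKBIB, -0.15 for REL, -0.29 for NFKBIA and -0.34 for BCL3.

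**Figure D3:**
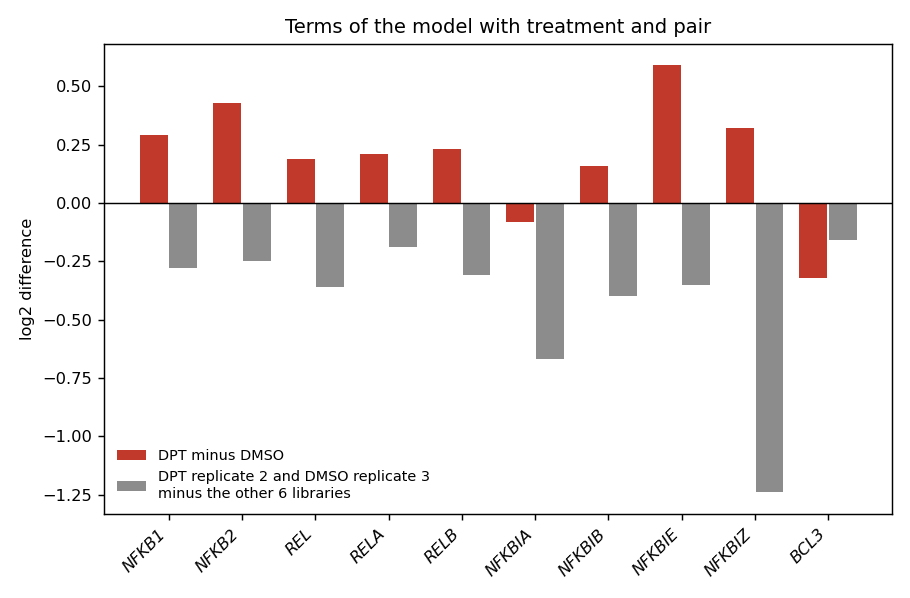
Log2 difference (vertical axis) for each gene from 1 model, with bars for DPT minus DMSO and for DPT replicate 2 and DMSO replicate 3 minus the other 6 libraries. The pair bars are below 0 for all 10 genes, down to -1.24 for NFKBIZ, while the treatment bars are below 0 for NFKBIA and BCL3. Over all tested genes the pair difference had a median of -0.01.

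The balance within the family was compared by 5 ratios of FPKM, each formed within a library and tested by a two-sided exact permutation test over 4 against 4 libraries. The smallest p that this design allows is 0.0286, and none of the 5 passed after adjustment over them. A ratio that alone reached this smallest p would adjust to 0.143. The adjusted test could therefore not call a single separated ratio, and its outcome says little about one. NFKB1 over NFKB2 was 0.624, 0.616, 0.557 and 0.608 in DPT replicates 1 to 4, against 0.654, 0.765, 0.645 and 0.670 in DMSO replicates 1 to 4. Each DPT value lay below each DMSO value (log2 difference -0.18, exact p = 0.0286, adjusted p = 0.143). The classical inhibitors over the subunits gave 0.701, 0.535, 0.638 and 0.728 in DPT, against 0.702, 0.736, 0.617 and 0.771 in DMSO, with overlapping groups (log2 difference -0.12, exact p = 0.343, adjusted p = 0.343). NFKBIA over RELA differed by -0.31 log2 (exact p = 0.143, adjusted p = 0.238). RELB and NFKB2 over RELA and NFKB1, the alternative against the classical subunits, differed by 0.15 log2 (exact p = 0.114, adjusted p = 0.238). BCL3 over NFKBIZ differed by -0.67 log2 (exact p = 0.229, adjusted p = 0.286).

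Other genes of the pathway were read from fixed lists, beside all tested genes, of which 5.68% were called higher and 5.29% lower with 8 libraries, and 16.9% higher and 17.0% lower with the term for the pair. Of the 15 genes of the kinase list, which also holds regulatory partners of kinases, 1 rose and 0 fell. Their median log2 fold change was -0.01. CHUK, which encodes IKKα, measured 69.9 ± 4.47 CPM in DPT and 58.4 ± 2.80 CPM in DMSO (SD, n = 4 each, log2 fold change 0.26, edgeR adjusted p = 0.0390). The other genes of the list included MAP3K14, at 44.9 CPM in DPT and 49.6 CPM in DMSO (log2 fold change -0.14, edgeR adjusted p = 0.324). With the term 3 of these 15 genes rose and 3 fell, shares near those of all genes. Of 9 genes for the breakdown of IκB proteins 0 rose and 0 fell in the 8 libraries, and with the term 1 rose and 1 fell.

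Of 16 adaptors and receptors 3 rose and 1 fell (median 0.07), and with the term 4 rose and 2 fell. BIRC3, a ubiquitin ligase of the TNF receptor complex, measured 72.7 ± 19.1 CPM in DPT and 36.8 ± 7.11 CPM in DMSO (SD, n = 4 each, log2 fold change 0.98, edgeR adjusted p = 0.0170). BIRC2, its close relative, rose by 0.50 log2 (adjusted p = 0.0247), and so did BCL10, an adaptor of MALT1, by 0.46 (0.0434), which is named because it completes the count. TNFRSF1A, the main TNF receptor, fell to 179.6 ± 12.4 CPM in DPT, against 244.95 ± 23.3 CPM in DMSO (SD, n = 4 each, log2 fold change -0.45, adjusted p = 0.0110). Of 13 brakes 2 rose and 0 fell (median 0.19), and with the term 6 of 13 rose, against 16.9% of all genes. TNFAIP3, the ubiquitin editor A20, measured 86.1 ± 28.9 CPM in DPT and 29.8 ± 8.27 CPM in DMSO (SD, n = 4 each, log2 fold change 1.53, adjusted p = 0.0113). TNIP2, an A20-binding protein, rose by 0.45 log2 (adjusted p = 0.00933).

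Of 32 target genes 26 were tested, of which 8 rose and 2 fell (median 0.51), and with the term 19 of 26 rose and 3 fell, against 16.9% and 17.0% of all genes. Of the 8 rises with 8 libraries, 5 were lost when some single library was left out. PLAU, the urokinase, measured 214.6 ± 23.8 CPM in DPT and 125.7 ± 7.05 CPM in DMSO (SD, n = 4 each, log2 fold change 0.77, edgeR adjusted p = 0.00125). IL1A, an inflammatory cytokine, measured 27.4 ± 9.19 CPM in DPT and 5.33 ± 1.44 CPM in DMSO (SD, n = 4 each, log2 fold change 2.37, adjusted p = 0.00183). TNFAIP2 and CCL2 fell, by 0.55 and 0.47 log2 (adjusted p = 0.0216 and 0.0361). The list was chosen with earlier results of these data known. The deposited annotation puts 179 genes in the KEGG NF-kappa B pathway, of which 81 were tested and 12 rose and 1 fell (median 0.11). With the term 28 of the 81 rose and 9 fell. This list is not separate from the others: most of the 12 rises, among them NFKB2, CHUK, BIRC3, TNFAIP3 and PLAU, and the fall, TNFRSF1A, are counted above. NFKB1, NFKB2, RELA, RELB and NFKBIA are among the 179. The NFAT genes, which the deposited table gives the same Rel family label, had 4 tested members, of which 0 rose and 0 fell with 8 libraries and 1 rose with the term.

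Among the called genes of the kinase, adaptor and brake lists and the falls in the target list, those lost without single libraries were BIRC3 (DMSO replicate 2, DPT replicate 3 or DPT replicate 4 left out, adjusted p up to 0.0581) and BIRC2, CHUK and TNFAIP2. The last 3 were each lost when a DMSO library other than replicate 3, or DPT replicate 3 or 4, was left out (adjusted p up to 0.0808 for BIRC2, 0.122 for CHUK and 0.0711 for TNFAIP2). Of the 8 such fits, the one lacking DPT replicate 2 alone kept the calls of BCL10 and CCL2 (adjusted p up to 0.109 for BCL10 and 0.110 for CCL2). The 5 target genes whose rise was lost, named here to complete that count, were CSF2 (without DMSO replicate 1 or 2 or DPT replicate 3 or 4, adjusted p up to 0.0638), CCND1 (without DMSO replicate 1 or 4 or DPT replicate 1, 3 or 4, up to 0.0836), CXCL3, IER3 and MYC. The last 3 were lost in each such fit except those lacking DMSO replicate 3 or DPT replicate 2 (adjusted p up to 0.107 for CXCL3, 0.110 for IER3 and 0.137 for MYC). TNFAIP3, TNIP2, TNFRSF1A, PLAU, IL1A and TRAF1, the remaining target gene that rose, were called in all 8 of those fits.

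**Figure D4:**
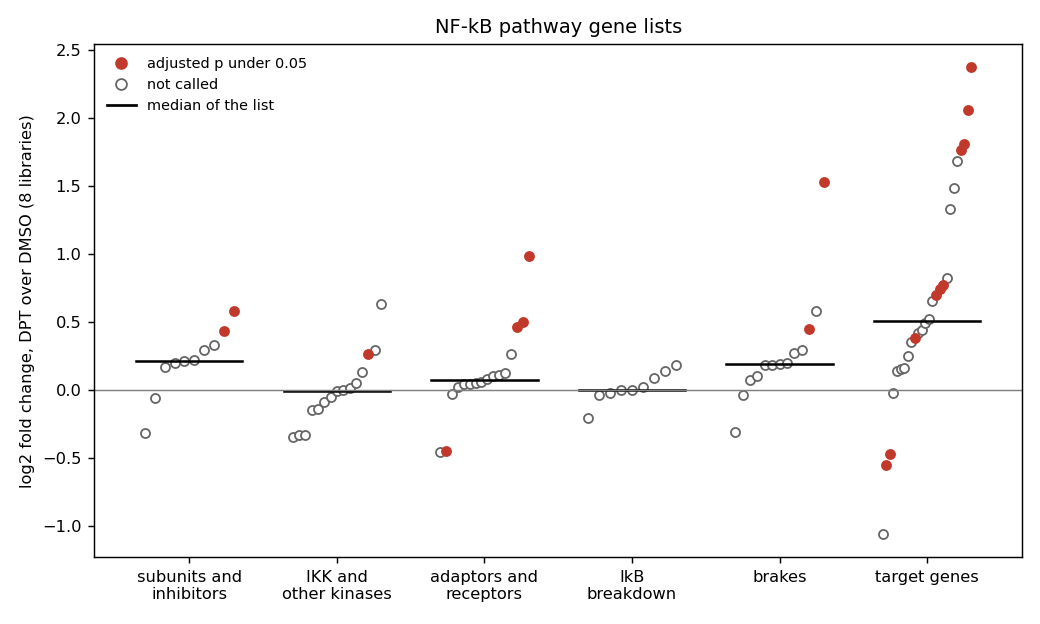
Log2 fold change of DPT over DMSO with 8 libraries (vertical axis) for each tested gene of 6 NF-kB lists, filled where the adjusted p was under 0.05, with a line at the median of each list. The target genes have the highest median, 0.51, and spread from -1.06 to 2.37, while the kinase list, which includes partners of kinases, centres on -0.01.

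The genes whose pattern over the 8 libraries was most like that of NFKBIE were VPS37B, EHD4 and FEM1C. Likeness was the root-mean-square difference between centred log2 CPM profiles among 10328 genes of at least 5 CPM. It was 0.0600, 0.0707 and 0.0729 log2, against a spread of NFKBIE itself of 0.333. For NFKB2 they were CORO2B, GFPT2 and ADNP2, with differences of 0.0526, 0.0604 and 0.0607 log2 against a spread of 0.250. The libraries share treatment, pair and scaling, so likeness is a description.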

How the data were processed

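RNA was sequenced from 4 DPT and 4 DMSO libraries of H2452 cells. The deposited table gave, per the file headers, an expected count and an FPKM value per gene and library, both made by the authors; 10.8% of the expected counts were not whole. The submitters' processing notes name hg38, RSEM, DESeq2, HISAT2, fastp (0.18.0) and StringTie (1.3.1); their roles, their order and the annotation release are not stated there. Gene positions are from a GENCODE annotation of GRCh38.

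Expected counts were rounded, filtered with filterByExpr (minimum count 10, minimum total 15), scaled by TMM and tested across all 12648 genes with edgeR 4.0.16 in R 4.3.3 (quasi-likelihood, treatment term only). Alternatives were DESeq2 1.42.0, limma 3.58.1 on log2(FPKM + 0.1) or log2(FPKM + 1), other scalings and filters, a term for the pair of libraries, the 6 other libraries, a replicate block and leaving out each library. The fits were tested on simulated data. SD and n refer to the 4 libraries of a group.

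The 10 genes, the lists and the tests were chosen with earlier results of these data known. Named were all 10 genes, the 2 higher and 2 lower called genes with the smallest adjusted p of each of 5 lists (kinases, adaptors, IκB breakdown, brakes and targets), and the 3 genes most like each of the 2 leading members. MAP3K14, BCL10, TRAF1 and the target genes whose calls were lost were named outside that rule, after their values were seen. Protein sequences were not used here.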

Additional observations from a re-analysis of the deposited data

Results flagged for a closer look

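In 30 groups of 4 values (the 10 genes in CPM and the 5 ratios, in each treatment), 3 had a library whose gap to the nearest other exceeded the share of the group's range set by Dixon's critical value at 95%. Chance flags about 1 in 20 such groups, and all 3 libraries belong to the pair. NFKBIA in DPT replicate 2 was 38.4 CPM, against 66.7 to 68.5 CPM in the other DPT libraries. NFKBIZ in DPT replicate 2 was 22.1 CPM, against 52.7 to 57.04 CPM. RELA in DMSO replicate 3 was 88.5 CPM, against 99.8 to 100.4 CPM in the other DMSO libraries.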

How the results depend on the processing

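The 10 genes called higher numbered 2 with all 8 libraries, 5 with the term for the pair, 6 in the 6 libraries, 0 with a replicate block, and 1 to 5 when single libraries were left out. The number lower was 0, and 1 with the term. Among all genes, 718 rose and 669 fell, 2140 and 2156 with the term, 2158 and 2169 in the 6 libraries, and 171 and 174 with the replicate block. Leaving out single libraries gave 332 to 1183 higher and 311 to 1108 lower. Limma on FPKM gave 331 lower with a pseudocount of 0.1, 334 with 1 and 268 with no filter, and the cause was not tested. With the replicate block the adjusted p was 0.0614 for NFKBIE and 0.0836 for NFKB2. The deviations of same-numbered libraries from their group means correlated at 0.2045, -0.3139, -0.3964 and 0.2086. DPT replicate 2 and DMSO replicate 3 shape those means, so this check cannot tell whether libraries of the same number shared handling. None of the 4 DPT libraries correlated best with the DMSO library of its own number, and DPT replicate 2 did so with DMSO replicate 3 (0.6761). NFKBIE kept its call in 20 of 21 alternatives and NFKB2 in 15 of 21. The 5 ratios kept their direction in every alternative run. With 3 against 3 libraries an exact test cannot go below 0.1, so ratios without the pair have no usable test. With 8 libraries and no term the 95% interval of NFKBIZ, -0.39 to 1.06, holds the log2 fold change of 0.58 seen for NFKBIE. A rise of that size in NFKBIZ is therefore not excluded by that fit. Its intervals with the term, 0.18 to 0.45, and in the 6 libraries, 0.21 to 0.49, do not hold 0.58. Those 2 intervals depend on the choice of the pair. With 8 libraries and no term the interval of NFKBIA, -0.49 to 0.37, does not hold 0.58.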
